A study of Mus musculus with 6106 samples.

Results

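The genes described here are 10 members of the NF-kappa-B system in splenic regulatory T cells (Tregs). The 5 subunit genes, Nfkb1, Rela, Rel, Nfkb2 and Relb, encode the transcription factors, and the other members, Nfkbia, Nfkbib, Nfkbid, Bcl3 and Tnfaip3, encode inhibitors and feedback regulators. They were chosen by name, and their rows were read from a table of 23725 genes over all cells with at least 500 unique molecular identifiers (UMIs, each marking 1 captured transcript). All 10 had at least 50 UMIs over the 3 libraries, as had 8633 genes of the table.

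NF-kappa-B factors bind DNA as dimers of Rel-family subunits and are held in the cytoplasm by inhibitor proteins of the I-kappa-B family. T cell receptor (TCR) signals, costimulation and receptors of the tumour necrosis factor family activate a kinase that marks the inhibitors for destruction, and the freed dimers then switch on genes that include several of their own inhibitors. In Tregs the system is known above all through Rel, which is needed for normal Treg development in the thymus and acts at the Foxp3 locus, and Nfkbid encodes a nuclear I-kappa-B protein with a known part in Foxp3 induction.

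The cells came from spleens of male B6 mice aged 10 months that all carried the Nr4a1-Gfp and Foxp3-Ires-Thy1.1 reporters. Nr4a1 is an early gene of TCR signalling, so its reporter follows recent TCR engagement. Live cells that excluded DAPI, bore TCRb and CD4 and showed the FoxP3-Thy1.1 reporter were collected by GFP as the 0 to 20 percent bin (GFPlow), the 40 to 60 percent bin (GFPmed) and the 80 to 100 percent bin (GFPhigh). A single library was made from each bin by inDrops, a droplet method that barcodes the transcripts of individual cells, and the labels do not say how many mice stand behind a library.

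With 1 library per bin there are 0 replicates and no test between bins. Levels are UMIs per 1000000 UMIs of the bin (UPM), and the 95% intervals cover counting error only, neither mice nor sorts. They take each UMI as independent, although several UMIs of a gene can come from the same cell. Of the 5435 cells used, 1537 were GFPmed and 1775 GFPhigh, and the rest were GFPlow. The libraries held 2435870, 2512277 and 2270376 UMIs in GFPlow, GFPmed and GFPhigh, with means of 1147, 1635 and 1279 UMIs per cell. The labels were checked on Nr4a1, which stood at 35.7, 92.7 and 340 UPM in that order of bins. Foxp3 stood at 390, 317 and 359 UPM and Cd4 at 558, 384 and 465 UPM. Summed markers of other cells were highest in GFPmed for myeloid cells (116.6 UPM against 5.34 in GFPlow and 8.81 in GFPhigh), erythroid cells (292.6 against 127.7 and 118.9) and CD8 T or NK cells (118.2 against 50.1 and 61.2). Plasma cell markers were highest in GFPhigh, at 234 UPM against 23.4 in GFPlow and 6.77 in GFPmed. Of the 531 plasma cell marker UMIs of GFPhigh, 483 were of Jchain alone. B cell markers stood at 48.9, 74.04 and 65.2 UPM, and platelet markers at 0.821, 1.59 and 0.881 UPM. Of the 8 myeloid markers 2, 2 and 4 had 0 UMIs in GFPlow, GFPmed and GFPhigh. The libraries shared 73 cell barcodes.

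The promoters of the 4 members with the largest ratios of GFPhigh over GFPlow are shown first, because NF-kappa-B is known to act on genes of its own system. Each window is taken from RefSeq on GRCm38.p6 and runs from 250 bases before to 50 bases after an annotated transcript start, 5′ to 3′ on the gene's strand. Capitals mark matches on either strand to the classical kappa-B consensus of 10 letters, and overlapping matches are merged.
Nfkbid, chr7:30422156-30422455, plus strand: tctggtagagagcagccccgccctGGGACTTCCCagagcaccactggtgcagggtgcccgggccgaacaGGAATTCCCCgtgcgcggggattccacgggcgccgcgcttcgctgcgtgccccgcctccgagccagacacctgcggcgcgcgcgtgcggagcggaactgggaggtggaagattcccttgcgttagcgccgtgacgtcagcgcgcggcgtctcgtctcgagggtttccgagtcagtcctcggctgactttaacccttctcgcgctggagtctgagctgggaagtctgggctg
Bcl3, chr7:19822706-19823005, minus strand: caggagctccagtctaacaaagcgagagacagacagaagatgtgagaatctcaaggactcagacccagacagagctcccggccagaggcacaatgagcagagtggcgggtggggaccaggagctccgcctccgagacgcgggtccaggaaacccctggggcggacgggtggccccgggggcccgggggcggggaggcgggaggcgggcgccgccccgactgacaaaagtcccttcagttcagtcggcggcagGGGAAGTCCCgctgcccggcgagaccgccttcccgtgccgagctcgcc
Nfkbia, chr12:55492598-55492897, minus strand: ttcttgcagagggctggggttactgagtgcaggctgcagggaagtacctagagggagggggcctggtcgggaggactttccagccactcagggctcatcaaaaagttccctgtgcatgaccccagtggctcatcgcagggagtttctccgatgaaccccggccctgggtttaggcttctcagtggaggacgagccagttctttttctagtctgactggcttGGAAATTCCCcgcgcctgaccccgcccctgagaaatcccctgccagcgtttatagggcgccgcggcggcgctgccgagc
Rel, chr11:23770920-23771219, minus strand: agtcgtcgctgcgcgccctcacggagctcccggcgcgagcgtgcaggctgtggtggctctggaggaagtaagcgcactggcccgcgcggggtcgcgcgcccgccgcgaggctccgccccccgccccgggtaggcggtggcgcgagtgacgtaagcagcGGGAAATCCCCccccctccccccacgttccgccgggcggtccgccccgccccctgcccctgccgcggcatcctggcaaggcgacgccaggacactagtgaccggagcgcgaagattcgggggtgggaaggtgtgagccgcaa
The Nfkbid matches begin at bases 25 and 70 of a window whose transcript start lies inside the gene and is not its outermost start, and the other 2 Nfkbid windows, the outermost among them, held no match. The Bcl3 match begins at base 3 of the transcript, the Nfkbia match 29 bases before the start and the overlapping Rel matches 92 and 91 bases before it.

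Windows were found for 8 of the 10 members, 13 windows in all, and 8 windows of 6 members held the consensus. Of the 32817 windows that RefSeq gives for all genes, 4.50% held it. The motif letters were settled after the windows of the members had been seen, so that share is not an independent reference for them. Members do not count as independent here, since several have more than 1 window and overlapping windows of Nfkb2 share a site. Tnfaip3 also held a match, GGAAATCCCC as read on the gene's strand, 12 bases before its start, although its level in GFPhigh was close to that in GFPlow. At Nfkb2 the match GGGAATTCCC, which reads alike on both strands, began 39 bases before a start. The windows of Rela and Nfkbib and 1 of the 2 Tnfaip3 windows held no match. A match is a description of the letters and was not tested as a binding site.

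Across the bins the members did not move as 1 block. Rel, Nfkbid, Bcl3 and Nfkbia were at least 1.5-fold higher in GFPhigh than in GFPlow, Nfkb2 and Nfkb1 were higher by less, and the intervals of Rela, Relb, Nfkbib and Tnfaip3 held a ratio of 1. The levels of Rel, Nfkbid and Bcl3 stood in rising order from GFPlow through GFPmed to GFPhigh, with the upper step of Rel within counting error. Nfkb1 and Tnfaip3 were lowest in GFPmed. In these bulk sums over a bin, more cells with a transcript and more transcript per cell cannot be told apart, which the counts per cell given further on address in part.

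**Figure D1:**
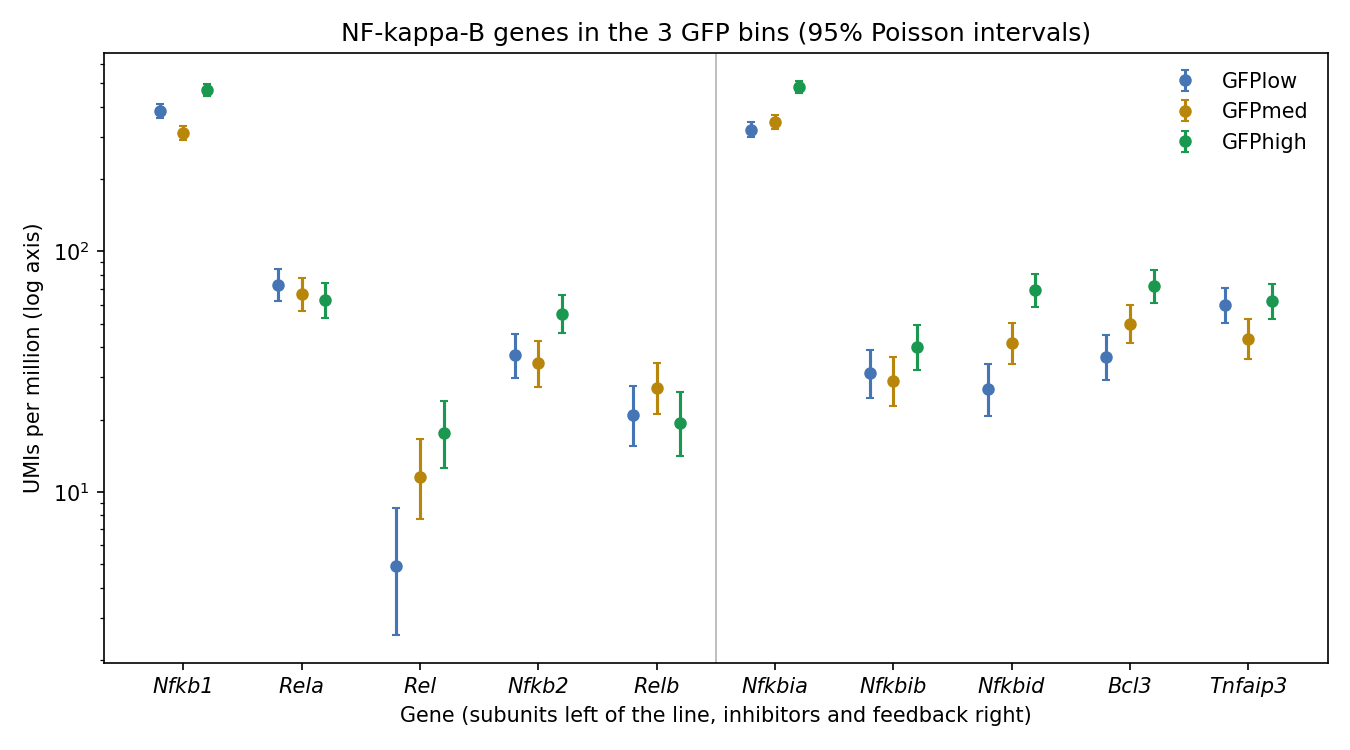
Level of each member in the 3 GFP bins, in UMIs per 1000000 UMIs (UPM) on a log axis, with exact 95% Poisson intervals and 1 library per point. Nfkb1 and Nfkbia lie above 300 UPM in every bin, Rel lies below all others, and Nfkbid and Bcl3 step upward from GFPlow to GFPhigh.

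Among the subunits, Nfkb1, the precursor of a DNA-binding partner that has no activation domain of its own, had 933, 782 and 1064 UMIs in GFPlow, GFPmed and GFPhigh. Its levels were 383.03, 311 and 469 UPM, and the 3 intervals did not overlap, with GFPmed lowest. The log2 ratio of GFPhigh over GFPlow was 0.29 (95% interval 0.16 to 0.42). Of GFPmed over GFPlow it was -0.30 (-0.44 to -0.16). GFPmed is also the bin with the most myeloid, erythroid and CD8 T or NK marker UMIs. Over the settings tried, which include leaving out the cells that carry such markers, the Nfkb1 ratio of GFPmed over GFPlow stayed between -0.30 and -0.22. The part of other cells or their free transcripts in this ratio was not tested.

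Rela, the main activating partner of the classical dimer, had 487 UMIs in all, and levels of 72.7, 66.5 and 62.99 UPM. Its intervals overlapped throughout, and GFPhigh over GFPlow was -0.21 (-0.53 to 0.12). Rel, the second activating subunit and the one most tied to lymphocytes, was the scarcest member with 12, 29 and 40 UMIs. Its levels of 4.93, 11.5 and 17.6 UPM were lowest in GFPlow, whose interval (2.55 to 8.61) did not reach that of GFPhigh (12.6 to 23.99). The ratio of GFPhigh over GFPlow was 3.48-fold, a log2 of 1.80 with a wide interval of 0.88 to 2.90. Rel was seen in 12, 26 and 37 cells, so the ratio rests on few transcripts. GFPmed and GFPhigh did not differ beyond counting error, at a log2 of 0.60 (-0.12 to 1.35).

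The non-canonical subunits differed from each other. Nfkb2, whose product is processed to the DNA-binding partner of Relb, had 90 UMIs in GFPlow, 86 in GFPmed and more in GFPhigh, at 36.9, 34.2 and 55.1 UPM. GFPlow and GFPmed were alike within counting error and GFPhigh was above both, at 0.57 (0.17 to 0.98) over GFPlow and 0.68 (0.28 to 1.10) over GFPmed. Its ratio of 1.49-fold over GFPlow lay just inside the 1.5-fold line. Relb had 51, 68 and 44 UMIs and 20.9, 27.1 and 19.4 UPM, and all 3 of its intervals overlapped. GFPhigh over GFPlow was -0.11 for Relb (-0.73 to 0.50).

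Nfkbia encodes the classical I-kappa-B inhibitor that NF-kappa-B itself induces. It had 782, 864 and 1097 UMIs, or 321, 344 and 483 UPM. GFPlow and GFPmed overlapped, and GFPhigh stood apart from both. The ratio of GFPhigh over GFPlow was 1.505-fold, a log2 of 0.59 (0.46 to 0.72), and of GFPhigh over GFPmed 0.49 (0.36 to 0.62). Nfkbia therefore sat almost on the 1.5-fold line, and it fell under the line with every deposited cell and with TMM scaling. Nfkbib, a related cytoplasmic inhibitor, had 76, 73 and 91 UMIs and 31.2, 29.1 and 40.1 UPM. Its ratio of GFPhigh over GFPlow was 0.36 (-0.09 to 0.82). Nfkbib overlaps Sirt2 (389 UMIs in the cells used) on the opposite strand, and the labels do not say whether reads were counted by strand.

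Nfkbid and Bcl3 encode nuclear I-kappa-B proteins that bind NF-kappa-B dimers on DNA. Nfkbid had 65 UMIs in GFPlow and more in the other bins, at 26.7, 41.8 and 69.2 UPM in GFPlow, GFPmed and GFPhigh. The 3 bins stood in rising order and their intervals (20.6 to 34.01, 34.2 to 50.6 and 58.8 to 80.9) did not overlap. Those of GFPlow and GFPmed nearly met, and a single GFPmed cell held 12 UMIs, or 11.4% of the Nfkbid UMIs of that bin. The level without that cell was not taken, so the separation of GFPlow from GFPmed is not read as firm. GFPhigh over GFPlow was 2.58-fold, a log2 of 1.37 (0.95 to 1.81). Bcl3 had 378 UMIs in all, at 36.5, 50.2 and 71.8 UPM. The order was the same, and GFPhigh over GFPlow was 1.96-fold or 0.97 (0.59 to 1.36). The neighbouring steps of Bcl3 were smaller, at 0.45 (0.05 to 0.87) and 0.52 (0.17 to 0.86).

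Tnfaip3 encodes a ubiquitin-editing enzyme that shuts off signalling upstream of NF-kappa-B and is a classical induced feedback gene. It had 396 UMIs in all, at 59.9, 43.4 and 62.1 UPM. GFPlow and GFPhigh were close, at a log2 of 0.05 (-0.29 to 0.40). GFPmed was lower than GFPlow, at -0.46 (-0.84 to -0.10). This interval can be too narrow, since 60.1% of Tnfaip3 UMIs lay in cells with more than a single one. After thinning to equal depth, described further on, Tnfaip3 was seen in 2.59% (1.96 to 3.36%) of GFPlow cells. In GFPmed the share was 2.47% (1.76 to 3.38%), so the shares did not differ beyond counting error. The other feedback genes with ratios above 1.5-fold, Nfkbia, Nfkbid and Bcl3, did not have their lowest level in GFPmed.

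**Figure D2:**
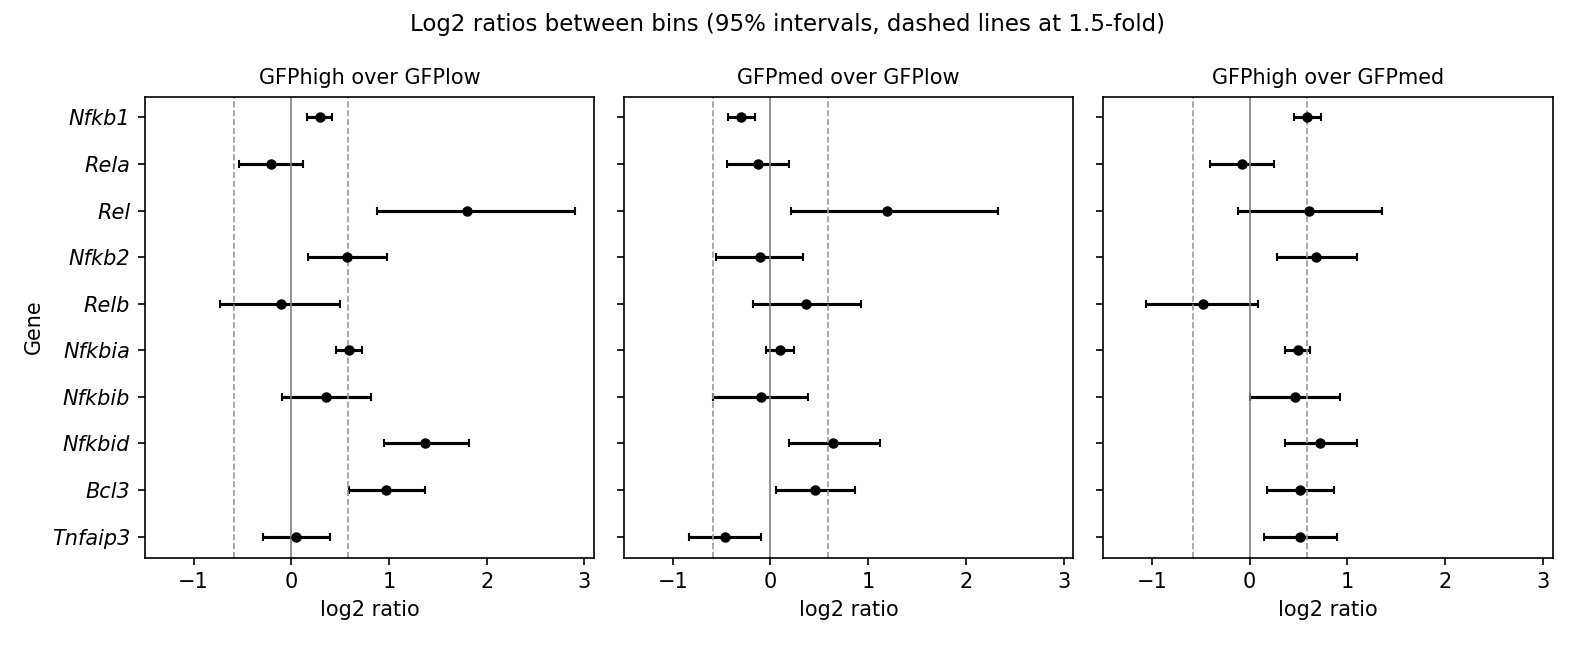
Log2 ratios of the members for the 3 pairs of bins, with exact 95% intervals from the UMI counts and dashed lines at 1.5-fold either way. In GFPhigh over GFPlow the points of Rel, Nfkbid, Bcl3 and Nfkbia are to the right of the line, Nfkbia by a hair at 0.59, and none is to the left of the lower line.

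Counted together, 4 of 10 members were past 1.5-fold higher in GFPhigh than in GFPlow and 0 were past it lower, beside 9.79% and 6.49% of the 8633 genes tested. The median log2 ratio was 0.47 over the members and 0.04 over all genes tested. In GFPmed over GFPlow 2 members, Rel and Nfkbid, were past the line and 0 below it, beside 5.61% and 6.14% of genes. The median of the members was 0.00 there and that of all genes -0.04. In GFPhigh over GFPmed 4 members, Nfkb1, Nfkb2, Rel and Nfkbid, were past it and 0 below, beside 8.53% and 4.51%, with medians of 0.52 and 0.08. Nfkb1 at 0.59 and Rel at 0.60 sat close to the line there, and were past it in 2 and 3 of 11 alternatives of cells and scaling. Most of these alternatives left 2 or 3 members past it, and the share of all genes was not taken in most of them. The 3 comparisons share libraries, so their counts are not independent. The interval lay above 0 for 6, 3 and 7 members in these comparisons and below 0 for 0, 2 and 0. The share of all genes with such intervals was not taken, so these counts are not read as a result about the members.

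Summed over the 10 members the levels were 994, 959 and 1350 UPM in GFPlow, GFPmed and GFPhigh. Nfkb1 and Nfkbia made up most of each sum, with 38.5% and 32.3% of it in GFPlow and 34.7% and 35.8% in GFPhigh. Within a library the ratio of inhibitor and feedback UMIs to subunit UMIs does not depend on scaling. It was 0.917 (0.846 to 0.994) in GFPlow, 1.13 (1.04 to 1.22) in GFPmed and 1.16 (1.08 to 1.251) in GFPhigh. The lowest bin stood apart and the upper bins overlapped. Since Nfkbia and Nfkb1 hold most of the UMIs, this order is mainly theirs. The ratio was not taken without these genes, so it is not read as a trait of all inhibitors and subunits. The ratio of Nfkb2 and Relb to Nfkb1, Rela and Rel was 0.126, 0.157 and 0.136, with intervals that overlapped throughout.

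Cells were then split by state within each bin, using genes that are not members. A cell with at least 2 UMIs of early TCR-response genes (Nr4a1, Egr1, Egr2 and Tnfrsf9, with Nr4a3 and Egr3 listed but at 0 UMIs) was called TCR-response. Otherwise it was called effector (S100a4, Ccr2, Klrg1, Il1rl1, Itgae, Myo1f) or central (by a list that includes Igfbp4, Ly6c1, Ccr7 and Lef1) by the same rule, and the rest were ungated. In GFPlow 54 cells (2.54%) were TCR-response, in GFPmed 90 cells (5.86%), and in GFPhigh the share was 15.5%. Their number follows the sort, since Nr4a1 is a gate gene and drives the reporter. The gate gene Tnfrsf9, and Il1rl1 of the effector gate, are also in the list of receptors that feed NF-kappa-B, given further on, and gates without them were not tried. The gates are ranges of a count and not cell types, and 28, 37 and 96 of these cells sat exactly at 2 UMIs while 93 GFPlow and 241 GFPhigh cells had 1 UMI. Median depths were 1188, 1862 and 1401 UMIs in TCR-response cells and 981, 1257 and 968 in ungated cells. TCR-response cells had a median of 0 UMIs of effector genes in each bin.

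Nfkbid was concentrated in the TCR-response cells of every bin. Its level there was 281.5, 179.7 and 272.7 UPM in GFPlow, GFPmed and GFPhigh, against 22.1, 37.6 and 20.8 UPM in ungated cells. The log2 ratios were 3.68 (2.71 to 4.61), 2.25 (1.48 to 3.04) and 3.69 (3.04 to 4.46). These rest on 19 and 31 UMIs in 11 and 14 TCR-response cells of GFPlow and GFPmed, where 1 GFPmed cell alone held 12, and on 57 positive cells of GFPhigh. TCR-response cells carried 75.8% of all Nfkbid UMIs of GFPhigh and 29.2% and 29.5% of those of GFPlow and GFPmed. The concentration was there without Egr1 in the gate, with 396.6, 194.1 and 279.9 UPM against 22.8, 43.2 and 23.4. It was also there with the gate at 1 UMI, with log2 ratios of 2.34, 1.17 and 3.09.

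Within TCR-response cells and within ungated cells, the Nfkbid ratio of GFPhigh over GFPlow was near 0. Among TCR-response cells the log2 ratio of GFPhigh over GFPlow was -0.08 (-0.75 to 0.74) and among ungated cells -0.09 (-1.01 to 0.83). Among effector cells it was 3.21 (0.70 to 6.03), from 4 UMIs in 28 GFPhigh cells and 3 UMIs in GFPlow. Over all cells outside the TCR-response gate, a comparison added after the gates had been seen, Nfkbid stood at 19.4, 31.6 and 20.7 UPM, and GFPhigh over GFPlow was 0.10 (-0.57 to 0.74). These intervals are wide, and the highest of the 3 levels outside the gate was that of GFPmed.

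**Figure D3:**
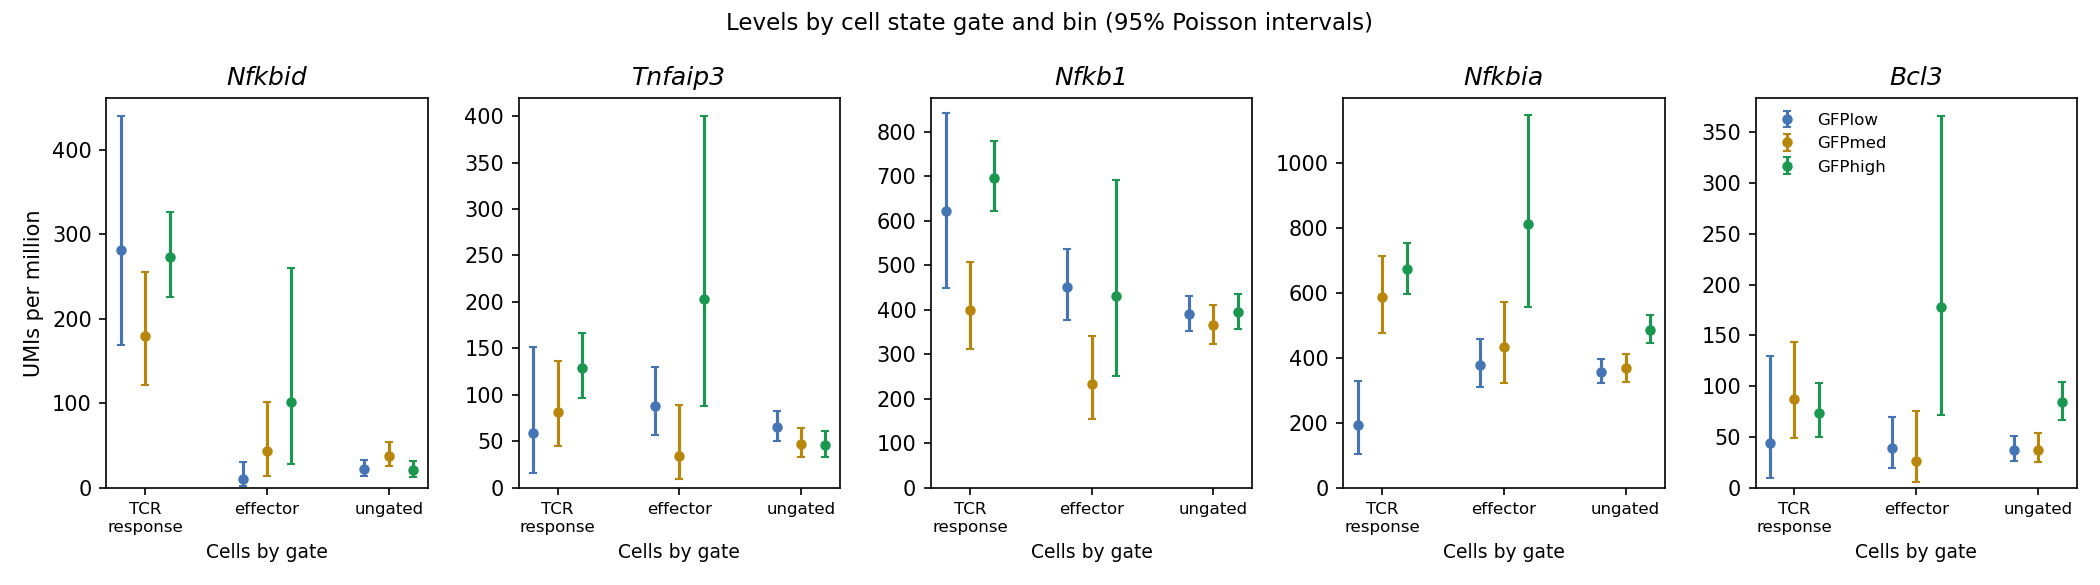
Levels of 5 members in UPM in TCR-response, effector and ungated cells by GFP bin, with exact 95% Poisson intervals, each panel on its own axis from 0. Nfkbid is high in the TCR-response cells of all 3 bins and between 10.6 and 101 UPM in the other states, and Bcl3 among ungated cells is highest in GFPhigh.

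In GFPhigh Bcl3 was not higher in TCR-response cells. It stood at 73.3 UPM in TCR-response cells and 84.1 UPM in ungated cells, a log2 ratio of -0.18 (-0.83 to 0.40). In GFPmed it was higher in TCR-response cells, at 86.95 against 37.6 UPM and 1.23 (0.20 to 2.16), and in GFPlow the ratio was 0.45 (-2.09 to 1.90) from 3 UMIs. Among ungated cells it was 37.5, 37.6 and 84.1 UPM in GFPlow, GFPmed and GFPhigh, and GFPhigh over GFPlow was 1.16 (0.60 to 1.75). Over all cells outside the TCR-response gate the ratio was 0.97 (0.57 to 1.39), as over all cells of the bin. Whether the Bcl3 and Nfkbid patterns differ was not tested, with 1 library per bin.

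Nfkbia showed both features. TCR-response cells of GFPmed and GFPhigh held 585 and 671 UPM against 367 and 486 in ungated cells. In GFPlow the order was the other way, with 193 UPM from 13 UMIs against 356 UPM. Outside the TCR-response gate Nfkbia was still higher in GFPhigh than in GFPlow, at 0.43 (0.29 to 0.58), which is under the 1.5-fold line.

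Several subunits were higher in the TCR-response cells of GFPhigh, the bin with most of them. Nfkb1 stood at 697 UPM there against 395 in ungated cells, at 0.82 (0.60 to 1.04), and outside the gate its ratio of GFPhigh over GFPlow was 0.14 (-0.00 to 0.28). Relb stood at 38.96 against 12.9 UPM, at 1.59 (0.47 to 2.76), from 17 and 13 UMIs. Rel stood at 36.7 against 9.89 UPM, at 1.86 (0.66 to 3.19), from 16 and 10 UMIs. Nfkb2 stood at 89.4 against 56.4 UPM, at 0.67 (0.04 to 1.28). Rela differed least of the subunits, at 75.6 against 65.3 UPM and 0.22 (-0.44 to 0.84). In GFPmed the ratios were 0.14 (-0.27 to 0.52) for Nfkb1, 0.00 (-1.499 to 1.12) for Nfkb2 and 0.39 (-1.13 to 1.57) for Relb, and in GFPlow 0.69 (0.18 to 1.13) for Nfkb1. So Relb, flat across the bins as a whole, was not flat across the states of GFPhigh. The Nfkb1 ratio of GFPmed over GFPlow was -0.10 (-0.32 to 0.13) among ungated cells. Among TCR-response cells it was -0.64 (-1.21 to -0.05) and among effector cells -0.93 (-1.61 to -0.34).

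The feedback gene Tnfaip3 was likewise uneven inside GFPhigh. Its level was 128.3 UPM in TCR-response cells and 45.5 UPM in ungated cells, at 1.49 (0.91 to 2.09), from 56 and 46 UMIs. In GFPmed the values were 81.2 and 46.7 UPM, at 0.83 (-0.21 to 1.72), and in GFPlow 59.3 and 65.3 UPM, at 0.02 (-2.06 to 1.28), a sign set by the 0.5 UMI added to a count of 4. Outside the TCR-response gate, Tnfaip3 was at -0.37 in GFPhigh over GFPlow (-0.78 to 0.03). Nfkbib in GFPhigh stood at 64.2 against 29.7 UPM, at 1.11 (0.32 to 1.90).

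In TCR-response over ungated cells 7 of 10 members were past 1.5-fold higher in GFPhigh and 0 lower, beside 17.7% and 14.8% of genes. The counts were 6 higher and 0 lower in GFPmed, beside 21.8% and 19% of genes. In GFPlow they were 6 higher and 1 lower, beside 29.9% and 22.6%, and the interval lay above 0 for 2 of the 10. Several members had 1 to 4 UMIs in the 54 TCR-response cells of GFPlow, where the 0.5 UMI added moves the ratio. The medians of the members were 0.64, 0.75 and 0.97 in GFPlow, GFPmed and GFPhigh, and those of all genes 0.11, 0.06 and 0.03. The 28 effector cells of GFPhigh gave 6 higher and 1 lower over ungated cells with a median of 0.97, beside 40.1% and 20.2% of genes. So many genes pass the line in few cells that this count is not set level with that of TCR-response cells. Relb rested on 2 UMIs there, Nfkbid on 4 and the lower Rela on 1, and the interval lay above 0 for 4 of the 10. In these effector cells Nfkbia stood at 812 UPM (555.3 to 1146.2), an interval that holds its level in TCR-response cells. Effector cells of GFPlow and GFPmed gave 0 higher each, and 3 and 2 lower, beside 21.9% and 16.4% of genes in GFPlow and 29.9% and 24.6% in GFPmed. Outside the TCR-response gate 2 members, Rel and Bcl3, were past 1.5-fold higher in GFPhigh than in GFPlow and 0 lower, beside 9.32% and 7.22% of genes, and the median was 0.16. In GFPhigh over GFPmed 1 member, Bcl3, was higher there and 2, Relb and Nfkbid, were lower, beside 8.7% and 5.07%.

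Transcripts of some members lay in few cells. Nfkbid had 1.53 UMIs per cell with a UMI over the 3 bins, and Tnfaip3 had 1.58, against 1.14 for Nfkb2 and 1.12 for Bcl3. For Tnfaip3 60.1% of UMIs were in cells with 2 or more of them, from 250 cells with a UMI, whose median depth was 1350. For Bcl3 the share was 19.6% from 339 cells with a median depth of 1455. Nfkb1 and Nfkbia, the most counted members, had 1.83 and 1.70 UMIs per cell with a UMI.

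Shares of cells were compared after thinning each cell to 500 UMIs, beside 75 cells with erythroid markers (median depth 1574 UMIs). Those cells were taken as a background, but whether they lack T cell transcripts was not checked. Nfkbia was seen in 12.95%, 13.2% and 19.3% of GFPlow, GFPmed and GFPhigh cells and in 5.33% (1.47 to 13.1%) of the erythroid-marker cells. Without thinning the shares were 25.0%, 31.3% and 33.9%, and 25.3% in the erythroid-marker cells. GFPlow was inside that interval, GFPmed just above it and GFPhigh further above. Nfkb1 was seen in 14.1%, 12.2% and 17.1%, and in 6.67% (2.20 to 14.9%) of the erythroid-marker cells, with GFPhigh alone above the interval. Unthinned, its share was 26.1% in GFPlow, 30.9% in GFPhigh and 25.3% in those cells. For the other 8 members the thinned shares lay between 0.283% and 3.58% and lay inside the interval of the erythroid-marker cells, except that Relb in GFPlow (0.707%) was below it, so they are not read as shares of expressing cells. Among them Bcl3 was seen in 1.27% (0.84 to 1.85%), 2.47% (1.76 to 3.38%) and 3.55% (2.74 to 4.52%) of GFPlow, GFPmed and GFPhigh cells. Nfkbid was seen in 1.37%, 1.89% and 3.21%, and Tnfaip3 in 2.59%, 2.47% and 2.59%. At least 1 member was seen in 43.2% of GFPhigh cells after thinning, against 34.3% of GFPlow and 33.6% of GFPmed cells.

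Genes that feed the system were grouped by role in lists that do not hold the members. Among 11 measured receptors, 4 were past 1.5-fold higher in GFPhigh than in GFPlow and 2 lower, beside 9.79% and 6.49% of all genes, with a median of 0.07. Tnfrsf9, a costimulatory receptor that is also a gate gene, stood at 20.5, 49.8 and 271.3 UPM, and Tnfrsf4, the OX40 receptor, at 109.6, 166.8 and 340.5 UPM. Il1rl1, the receptor of interleukin 33 and also an effector gate gene, stood at 37.4, 11.9 and 7.49 UPM and Il18r1 at 62.4, 30.6 and 18.5 UPM. Cells of the effector gate were 11.1% of GFPlow and 1.58% of GFPhigh cells.

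Of 14 measured TRAF, cIAP and non-canonical kinase genes, which carry signals from those receptors, 1 was past 1.5-fold higher in GFPhigh than in GFPlow and 0 were lower, close to the shares of all genes (9.79% and 6.49%). Tank was at 0.55, Ikbke at 0.34, Traf3 at -0.47 and Ripk1 at -0.45.

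Of 21 other inhibitors and modulators 4 were past 1.5-fold higher and 0 lower, beside 9.79% and 6.49% of all genes, with a median of 0.19. Nfkbiz, another nuclear I-kappa-B gene, stood at 25.5, 24.7 and 49.8 UPM, at 0.96 (0.51 to 1.44), so it was higher in GFPhigh alone. Zc3h12a, an RNase that degrades inflammatory transcripts, stood at 31.2, 45.0 and 48.9 UPM, at 0.65 (0.21 to 1.09). Its relative Zc3h12d was at 0.58 and Nkap at -0.58.

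Of 29 measured textbook targets, 13 were past 1.5-fold higher in GFPhigh than in GFPlow and 2 lower, beside 9.79% and 6.49% of all genes, with a median of 0.37. In GFPmed over GFPlow 1 was higher and 3 were lower, beside 5.61% and 6.14%, with a median of -0.06. Cd83, a surface protein of activated lymphocytes, stood at 25.5, 37.8 and 104.8 UPM, at 2.03 (1.63 to 2.47). The survival genes Bcl2a1a and Bcl2l1 were at 1.16 and 1.01, and Gadd45b at 1.06. Of the 13, 3 are the near-identical copies Bcl2a1a, Bcl2a1b and Bcl2a1d, between which reads could be split, so they are not separate evidence. Many of these targets also answer to other factors downstream of the TCR.

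Genes that respond to tissue handling were checked, since several NF-kappa-B genes are also early response genes. Of 10 measured, 2 were past 1.5-fold higher in GFPhigh than in GFPlow and 1 lower, beside 9.79% and 6.49% of all genes, and the sums of the list were 1860, 1648 and 1883 UPM. Dusp1 was at 1.07, Egr1 at 1.06, Jund at 0.46 and Klf6 at -0.91. The part of handling in the ratios was not tested.

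**Figure D4:**
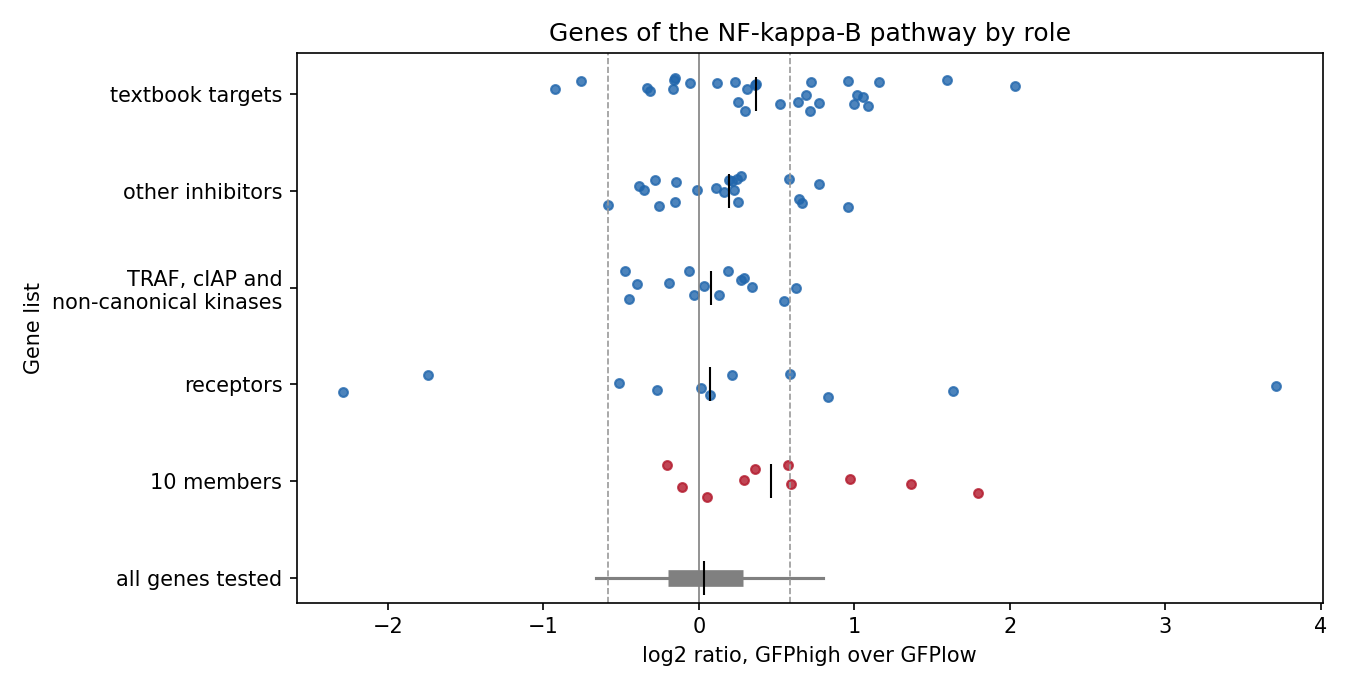
Log2 ratio of GFPhigh over GFPlow for each measured gene of 4 pathway lists and the 10 members, 1 point per gene with small vertical jitter, medians as black ticks and dashed lines at 1.5-fold. The grey bar gives the 5th to 95th (thin) and 25th to 75th (thick) percentiles of all genes tested. Of the 29 targets 13 lie to the right of the dashed lines, and 4 of the 10 members do.

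The genes whose pattern over the bins was nearest to that of Nfkbid, by distance in the log2 ratios of GFPmed and GFPhigh over GFPlow among 7054 genes with at least 100 UMIs, were Ncoa7, Ttc3, Mapkapk2, Lrrc32 and Bcl6. Ncoa7 stood at 47.2, 73.6 and 118.9 UPM. Lrrc32, the surface receptor that presents latent TGF-beta on activated Tregs, stood at 52.1, 81.997 and 126 UPM. Both ratios fell inside the intervals of Nfkbid for 91 genes. The nearest to Nfkbia were Hmox2, Utp11l, Stmn1, Zfp422 and Abracl, and more genes still fell inside its intervals, so neither pattern is peculiar to the member. Likeness here is over 3 libraries.

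In mm10 with GENCODE M21, 4 of the 10 members lie on chromosome 7, namely Relb (19606217 to 19629438), Bcl3 (19808462 to 19822770), Nfkbib (28758251 to 28767512) and Nfkbid (30421732 to 30428746). Of these 4, Relb and Bcl3 lie nearest to each other, and they had different orders over the bins. Rela (5637483 to 5648130) and Nfkb2 (46304320 to 46312385) lie on chromosome 19. Nfkb1 lies on chromosome 3 (135584655 to 135691547), Tnfaip3 on chromosome 10 (19000910 to 19015657), Rel on chromosome 11 (23736847 to 23770970) and Nfkbia on chromosome 12 (55489410 to 55492647). Bcl3 overlaps the antisense models Gm16175 and Gm16174, and Nfkb2 overlaps Psd, which had 0 UMIs.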

How the data were processed

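Single-cell libraries of 3 GFP bins were analysed from 1 table of raw UMI counts per gene and cell that the authors deposited. The mRNA was reverse transcribed from oligo-dT primers and sequenced on a NextSeq500, per the labels' protocols. The submitters' processing notes name TopHat2, SAMtools and mm10. Versions, annotation, strand and UMI collapsing are not given in the sources used here. All columns matched a labelled cell.

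Cells under 500 UMIs (249 GFPlow, 145 GFPmed and 277 GFPhigh) were left out, and no doublets were removed. UMIs were summed per bin, and log2 ratios were taken after adding 0.5 UMI. Intervals at 95% are exact Poisson for levels, exact conditional binomial for ratios and Clopper-Pearson for shares, and a count of 0 allows 3 UMIs, or up to 1.23, 1.19 and 1.32 UPM in GFPlow, GFPmed and GFPhigh. A difference was called past 1.5-fold among genes with at least 50 UMIs. Oligo-dT priming gives 1 tag per transcript end, so levels were not divided by gene length. Python 3.11.15, numpy 2.4.6 and scipy 1.17.1 were used, and edgeR only for the TMM factors of 1 alternative.

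Members, lists and gates were chosen with earlier results of these data known. The motif letters were settled after the windows of the members had been seen. All members were named, and from each list up to 4 genes of largest absolute ratio that reached 100 UMIs over the outer bins. A list of signalling genes and the cells of the central gate are not reported here. Tnfrsf18 and other list genes outside that rule were counted but not described. For likeness, the 5 nearest genes were taken for Nfkbia and for the member with the largest ratio among those with at least 100 UMIs, which passed over Rel. Alternatives changed the cells, the scaling, the UMI added, the fold and the gate.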

Additional observations from a re-analysis of the deposited data

How the results depend on the processing

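Over 11 alternatives of cells and scaling, the ratio of GFPhigh over GFPlow kept its sign for the members other than Relb, which changed sign, and Tnfaip3, which was at -0.37 outside the TCR-response gate. The median of the members ran from 0.16 to 0.50 in that comparison, from -0.05 to 0.11 in GFPmed over GFPlow and from 0.35 to 0.63 in GFPhigh over GFPmed. Counts near the 1.5-fold line moved. For GFPhigh over GFPmed, 2 members in place of 4 were higher with all deposited cells, TMM scaling, scaling without ribosomal protein genes, equal weight per cell, cells of other types left out and cells without UMIs of 6 scarce handling genes, and 6 were higher in the deeper cells alone, the stricter limit on UMIs per cell. In the same comparison 1 was lower with equal weight per cell and without the 5 percent deepest cells. For GFPmed over GFPlow, 1 in place of 2 was higher with equal weight per cell, without the 5 percent deepest cells and without the cells that hold those handling genes, which were few. Shares over all genes were not taken in the settings named here, so these counts stand without a reference. A change of scaling moves all genes. The median of all genes in GFPhigh over GFPmed was 0.08 in the main setting, 0.01 with TMM scaling and 0.01 with scaling without ribosomal protein genes.

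Outside the TCR-response gate, an alternative added after the data were seen, 2 members in place of 4 were past the line in GFPhigh over GFPlow, and the median was 0.16. There 1 was higher and 2 were lower in GFPhigh than in GFPmed, and Nfkbid turned from 0.72 to -0.60. At the looser fold, 4 were higher and 1 lower in GFPmed over GFPlow and 8 higher and 1 lower in GFPhigh over GFPmed. At a fold of 2, counts of 2, 1 and 0 were found in GFPhigh over GFPlow, GFPmed over GFPlow and GFPhigh over GFPmed. Shares over all genes were not taken at these other folds, so the counts stand without a reference.

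With the gate at 1 UMI, 3 in place of 6 members were higher in TCR-response than in ungated cells of GFPlow, and Nfkb2 turned to -0.37 there. The share over all genes was not taken at that gate. Without Egr1 in the gate, added later, Tnfaip3 in GFPmed turned to -0.49. Without thinning, 10 members had a higher share of cells in GFPmed than in GFPlow, in the deeper library. The median of all genes stayed within 0.10 of 0 in each setting of scaling. The causes were not tested. No paired analysis was possible because each bin is 1 library, and leaving out a replicate was not possible for the same reason.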
